A study of Mus musculus with 16 samples.

Results

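Interferon-stimulated genes are the set of antiviral and immune genes that cells switch on when interferon binds its receptor. Here 45 of them were followed across hematopoietic stem and progenitor cells of mice with a low level of PU.1, out of 54347 genes in the deposited table of RNA-seq counts. They were chosen by name, with earlier results of these data known, from a list of well known interferon targets. All 45 symbols were found. RNA was sequenced from sorted bone marrow LSKs (lineage-negative, Sca-1 positive, c-Kit positive cells, which hold the stem cells) and GMPs (granulocyte-monocyte progenitors). The WT mice carried no modification, and the UREΔ mice lacked the upstream regulatory element, an enhancer of Spi1, the gene that encodes PU.1. The deletion was in the germline, so that every cell of the animal carried it, including the cells of the marrow environment. All mice were littermates on a C57BL/6 background and were between 8 and 12 weeks old. Each of the 4 groups (WT LSK, UREΔ LSK, WT GMP and UREΔ GMP) had 4 libraries, 16 in all.

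As background, type I interferon signals through its receptor and the receptor kinases to a complex that contains STAT2 and IRF9. This complex binds the interferon-stimulated response element (ISRE) in the promoters of its targets, whereas interferon gamma acts mainly through gamma-activated sites (GAS). Many of the products sense, degrade or block viral nucleic acids, and others dampen the response again. Hematopoietic stem cells are known to carry a basal level of interferon-stimulated transcripts without infection, and interferon can drive them out of dormancy. PU.1 is an ETS factor that binds GAGGAA sequences and can bind composite ETS-IRF elements together with IRF8 or IRF4.

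The libraries held between 20028302 and 29128858 estimated counts, with similar ranges in the 4 groups. Levels are given as CPM (counts relative to the TMM-scaled library size), always in the order of replicates 1 to 4. Spi1 stood at 127, 69.5, 134 and 165 CPM in WT LSKs and at 2.84, 4.44, 3.66 and 1.13 CPM in UREΔ LSKs, and at 139, 84.8, 181 and 153 and 17.4, 28.6, 23.6 and 15.6 CPM in WT and UREΔ GMPs, so that every library matched its genotype label. Of the genes of the sorting markers, Kit was at 256 to 1910 CPM over all libraries and not called between the genotypes, and Ly6a, which encodes Sca-1, was at 74.9 to 122 CPM in WT LSKs, 35.1 to 111 CPM in UREΔ LSKs and at most 2.88 CPM in any GMP library. Fcgr3 and Fcgr2b, which encode the CD16/32 used to sort the GMPs, differed between the genotypes. Fcgr3 was higher in UREΔ GMPs (228 to 424 CPM in WT and 508 to 1328 CPM in UREΔ, log2 fold change 1.34 ± 0.32 (SE), adjusted p = 0.0326), and Fcgr2b was lower in UREΔ LSKs (-4.77 ± 0.78, adjusted p = 0.0064). In each of the 4 groups replicates 1 and 4 stood apart from replicates 2 and 3. The Y-linked gene Ddx3y was above 10 CPM in 3 of 4 WT libraries (replicates 1, 2 and 3) and in 1 of 4 UREΔ libraries (replicate 1) of either cell type, so that the sexes were unequally spread over the genotypes except within replicates 1 and 4. The counts of members called are therefore also given within those pairs of replicates and with a covariate for Y-linked reads, which was not done for the pathway and marker lists.

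Many of these genes share a sequence in their promoters. RefSeq promoters of GRCm38.p6, which cover 250 bases before to 50 bases after a start site, were given for 34 of the 45 genes, with 39 promoters among them. The ISRE core GAAANNGAAA, searched on both strands, was present in 20 of these 39 promoters (51.3%), compared with 3.44% of all 32851 promoters. The stretches below show the 160 bases before the start site, 5′ to 3′ on the strand of the gene, with every ISRE core in capitals (it reads TTTCNNTTTC when it lies on the other strand). The first 6 belong to genes that were called lower in UREΔ LSKs, and the last 2 to interferon-induced GTPase genes that were not.
Isg15: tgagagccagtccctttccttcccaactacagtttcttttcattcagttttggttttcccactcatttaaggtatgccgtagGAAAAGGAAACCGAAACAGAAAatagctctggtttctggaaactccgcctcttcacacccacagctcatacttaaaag
Ifit1: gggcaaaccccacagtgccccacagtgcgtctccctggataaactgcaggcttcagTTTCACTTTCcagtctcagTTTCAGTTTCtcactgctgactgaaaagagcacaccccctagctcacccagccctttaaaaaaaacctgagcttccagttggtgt
Ifit3: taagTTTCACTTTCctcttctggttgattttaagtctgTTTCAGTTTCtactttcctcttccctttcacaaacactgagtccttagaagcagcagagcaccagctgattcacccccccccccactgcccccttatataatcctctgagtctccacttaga
Oas1a: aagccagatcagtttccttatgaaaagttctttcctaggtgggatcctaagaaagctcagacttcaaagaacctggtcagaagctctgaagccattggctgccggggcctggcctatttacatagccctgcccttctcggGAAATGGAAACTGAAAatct
Rsad2: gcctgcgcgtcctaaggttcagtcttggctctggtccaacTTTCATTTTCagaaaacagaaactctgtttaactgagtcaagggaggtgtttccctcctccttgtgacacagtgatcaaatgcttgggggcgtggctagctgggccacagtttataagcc
Gbp3: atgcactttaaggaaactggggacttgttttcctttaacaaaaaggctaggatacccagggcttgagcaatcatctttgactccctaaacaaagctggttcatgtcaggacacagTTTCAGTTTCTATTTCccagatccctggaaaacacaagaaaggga
Gbp2: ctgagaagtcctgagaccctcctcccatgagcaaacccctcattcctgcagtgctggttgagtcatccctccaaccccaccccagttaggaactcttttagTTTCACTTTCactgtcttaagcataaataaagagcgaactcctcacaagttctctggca
Igtp: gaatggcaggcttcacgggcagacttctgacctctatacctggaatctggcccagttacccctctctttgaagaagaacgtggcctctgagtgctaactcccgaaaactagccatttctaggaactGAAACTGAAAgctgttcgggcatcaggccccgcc
These stretches lie in GRCm38.p6, with Isg15 at chr4:156200819-156200978 on the minus strand, Ifit1 at chr19:34640729-34640888 on the plus strand, Ifit3 at chr19:34583369-34583528 on the plus strand, Oas1a at chr5:120907526-120907685 on the minus strand, Rsad2 at chr12:26456453-26456612 on the minus strand, Gbp3 at chr3:142559884-142560043 on the plus strand, Gbp2 at chr3:142620503-142620662 on the plus strand and Igtp at chr11:58199396-58199555 on the plus strand. Isg15 had 3 overlapping cores in a row, Oas1a and Gbp3 had 2 overlapping cores close to the start site, and Ifit1 and Ifit3 had 2 separate cores each.

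Of the 11 members that were called lower in UREΔ LSKs and had a promoter in the table, 7 (63.6%) held a core, and of the 23 that were not called, 12 (52.2%) did. The GAS letters TTCNNNGAA were found in 28.2% of the members' promoters and in 8.3% of all promoters, with 2 of the 11 called members (18.2%) and 9 of the 23 others (39.1%) among them. The PU.1 letters GAGGAA were found in 30.8% of the members' promoters, close to the 28.3% of all promoters, and the ETS-IRF composite GGAANNGAAA in 12.8% compared with 2.72%. By call, PU.1 letters were held by 36.4% of the called and 34.8% of the other members, and the composite by 9.09% and 17.4%. None of these splits was tested. The composite letters can overlap those of an ISRE core. These matches are descriptions of a short window, and binding was not measured here.

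Over all 45 members, the level was highest in WT LSKs. The mean log2 CPM of the members was 6.04 ± 0.18 (SD, n = 4) in WT LSKs, 4.87 ± 0.22 in UREΔ LSKs, 4.603 ± 0.20 in WT GMPs and 3.97 ± 0.14 in UREΔ GMPs. The 4 WT LSK libraries lay between 5.81 and 6.24 and did not overlap with the UREΔ LSK libraries, which lay between 4.65 and 5.18. In GMPs the WT libraries lay between 4.33 and 4.77 and the UREΔ libraries between 3.83 and 4.16, so that UREΔ GMPs held the lowest values of all libraries. The difference between the genotypes in LSKs was -1.16 over all members and -0.75 over only those members that averaged 3 log2 CPM or more, and that between the cell types in WT mice was -1.43 and -1.19. WT LSKs had the highest group mean for 40 of the 45 members and UREΔ GMPs had the lowest for 33, an order not counted over all genes. The exceptions with the highest mean elsewhere were Gbp2 in UREΔ LSKs, Gbp3 and Psmb8 in WT GMPs, and Psmb9 and Ifitm2 in UREΔ GMPs.

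**Figure D1:**
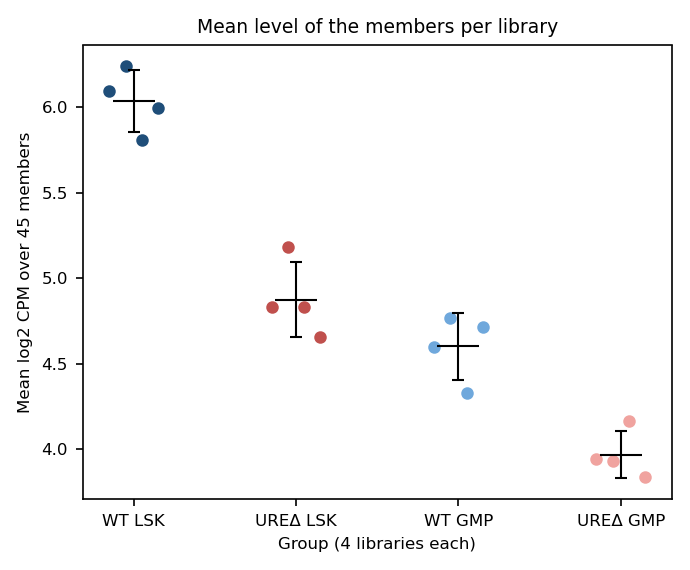
Mean log2 CPM over the 45 members in each library (points), with the mean and SD of each group of 4 libraries (black bars). The WT LSK libraries lie between 5.81 and 6.24, above all other libraries, and the UREΔ GMP libraries lie lowest, between 3.83 and 4.16. Over members of at least 3 log2 CPM, which are not plotted separately, the difference between the genotypes in LSKs was -0.75 in place of -1.16.

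Members differed widely in level. Per kilobase of exon, the mean in WT LSKs was highest for Ifitm2 with 775 CPM per kb, followed by Ifitm3 with 525 and Ifitm1 with 453, the membrane proteins that hinder virus entry. At the other end were Mx1 and Mx2, the dynamin-like GTPases that block virus replication, with 1.29 and 1.22 CPM per kb. The spread between replicates was similar in the 4 groups, with a median SD over the members of 0.30 log2 CPM in WT LSKs, 0.41 in UREΔ LSKs, 0.40 in WT GMPs and 0.39 in UREΔ GMPs. Samhd1 had the smallest SD in WT LSKs (0.091), UREΔ LSKs (0.097) and WT GMPs (0.073), and Oas3 had the largest in those groups (1.76, 2.44 and 1.89). It was 101, 20.9, 7.22 and 77.2 CPM in the WT LSK libraries and 32.3, 5.79, 0.715 and 24.1 CPM in the UREΔ LSK libraries, high in replicates 1 and 4 and low in replicates 2 and 3 of both genotypes.

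**Figure D2:**
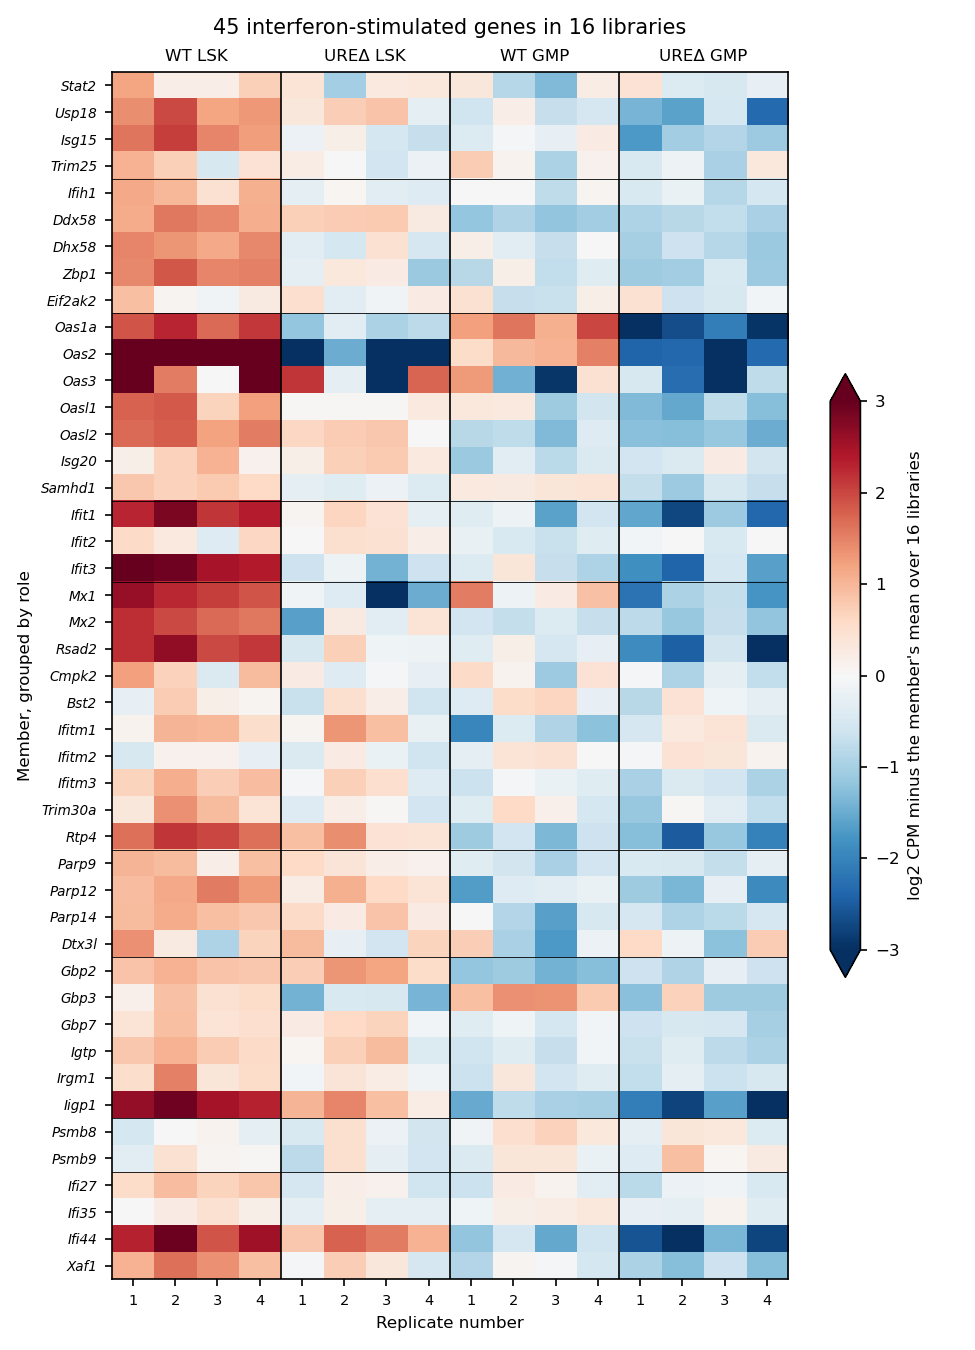
Log2 CPM of each of the 45 members (rows, grouped by role) in each of the 16 libraries (columns, by group and replicate number), with the member's mean over the 16 libraries subtracted. Red is above and blue below that mean, the scale ends at 3 on either side, and the WT LSK columns are red for most members, with Psmb8, Psmb9 and Ifitm2 among the pale rows.

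The first comparison set UREΔ LSKs against WT LSKs. Of the 45 members, 19 were called lower in UREΔ LSKs than in WT LSKs and none higher, with both limits applied (more than 1.5-fold, and below 0.05 for the Benjamini-Hochberg adjusted p of edgeR's quasi-likelihood test over all 15154 genes tested). Over all genes, 3.76% were called lower and 2.38% higher. The median log2 fold change of the members was -0.92, compared with 0.00 over all genes tested, and 43 of the 45 values were negative. In 23 members every UREΔ library lay below every WT library, which was the case for 6.90% of all genes. In bulk samples, less RNA per cell and fewer cells of a type cannot be told apart.

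The count of 19 depended on the libraries and on the fit, while the direction of these 19 members was the same in every fit of this comparison. With the replicate number as a block, 26 members were lower and none higher (background 5.62% and 3.83%). Usp18, Ddx58, Oas3, Xaf1, Trim25, Trim30a and Irgm1 were added and none was lost. Within replicates 1 and 4, where each genotype had 1 library with and 1 without Y-linked reads, 25 were lower, and 988 of all genes were called in either direction, compared with 930 in the fit of all 8 libraries. Within replicates 2 and 3, 6 members were lower and 386 of all genes were called. Isg15, Ifi27, Ifi44, Ifih1, Dhx58, Oasl1, Oasl2, Mx1, Mx2, Rtp4, Zbp1, Gbp3 and Samhd1 lost their calls there. The median log2 fold change of the members was -0.76 in that fit. With a covariate for Y-linked reads 10 members were lower and 506 of all genes were called. Ifi27, Ifi44, Oasl1, Oasl2, Mx1, Mx2, Rtp4, Zbp1 and Gbp3 then lost their calls. The median log2 fold change of the members was -0.89 with this covariate, compared with -0.92 in the fit of all 8 libraries. Without WT LSK replicate 1, 2 or 4 the member count was 12, 10 and 12, and 633, 565 and 606 of all genes were called. The number of calls over all genes thus dropped with that of the members in these fits. Of the 8 fits that left out a library, Rtp4 lost its call in 7, Ifi27, Ifi44, Mx1 and Mx2 in 6 each, Oasl1 and Oasl2 in 4 each, Gbp3 in 3 and Zbp1 in 1. The other 10 called members kept theirs in all 8.

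Of the 3 IFIT genes among the members, which all lie on chromosome 19, Ifit1 and Ifit3 were called lower. IFIT proteins bind viral RNA and restrain its translation. Ifit3 was at 40.6, 34.7, 25.6 and 23.99 CPM in the WT LSK libraries and 2.92, 4.04, 1.64 and 2.92 CPM in the UREΔ LSK libraries (log2 fold change -3.46 ± 0.33, adjusted p = 0.000411; ± gives the SE throughout). Ifit1 was at 57.7, 84.9, 52.9 and 60.5 CPM in the WT LSK libraries and 12.5, 18.4, 15.9 and 9.65 CPM in the UREΔ LSK libraries (-2.20 ± 0.26, adjusted p = 0.00105). For both genes the highest UREΔ library was below the lowest WT library. Ifit2, which lies next to Ifit3 (chr19:34550694-34576419 and chr19:34583531-34588731 in GRCm38), was at 77.97, 64.4, 39.98 and 80.7 CPM in the WT LSK libraries and 53.2, 73.9, 72.04 and 60.2 CPM in the UREΔ LSK libraries, with overlapping groups (-0.05 ± 0.23, adjusted p = 0.978). Whether the effects of these neighbours differ was not tested. Ifit3 shared 61.8% of its 31-base words with its copy Ifit3b, and with the counts of both genes added the log2 fold change was -3.34.

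Oligoadenylate synthetases make the 2′-5′ linked adenylates that activate RNase L, and 4 of the 5 family members were called lower. Oas1a was at 63.03, 82.5, 54.9 and 73.5 CPM in the WT LSK libraries and 7.44, 13.5, 8.75 and 9.77 CPM in the UREΔ LSK libraries (-2.82 ± 0.24, adjusted p = 0.000239). It shared 68.8% of its 31-base words with other genes, nearly all with Oas1g, and gave -3.02 when the counts of Oas1g were added. Oas2 had 581, 315, 280 and 307 counts in the WT LSK libraries and 0, 5, 0 and 0 counts in the UREΔ LSK libraries. Scaled to the library totals, this was 287 times more in WT (95% exact binomial interval 123 to 886, counting error only; adjusted p = 0.000652). Oas2 was thus at or near 0 in all UREΔ LSK libraries. Oas3 lies between these genes (chr5:120730333-120749853, chr5:120753098-120777661 and chr5:120896256-120907521) and was not called (-1.74 ± 1.04, adjusted p = 0.532), but passed with the replicate block (-2.04 ± 0.28, adjusted p = 0.00358).

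The OAS-like genes Oasl1 and Oasl2, neighbours on chromosome 5, also fell. Oasl1, which acts on the translation of Irf7, was at 23.7, 25.1, 10.999 and 16.4 CPM in the WT LSK libraries and 7.13, 7.08, 7.06 and 8.56 CPM in the UREΔ LSK libraries (-1.38 ± 0.28, adjusted p = 0.0196). Oasl2 was at 179, 195, 128 and 160.03 CPM in the WT LSK libraries and 85.2, 94.04, 96.97 and 55.1 CPM in the UREΔ LSK libraries (-1.03 ± 0.21, adjusted p = 0.0209). In both genes the groups did not overlap. Samhd1, which hydrolyses the deoxynucleotides that reverse transcription needs, was at 96.5, 89.6, 95.8 and 84.4 CPM in the WT LSK libraries and 45.5, 43.4, 48.8 and 41.7 CPM in the UREΔ LSK libraries (-1.06 ± 0.15, adjusted p = 0.00308). Isg20, an exonuclease, was at 18.8 to 35.7 CPM in WT and 19.5 to 29.98 CPM in UREΔ LSKs and was not called (-0.08 ± 0.27, adjusted p = 0.965).

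Among the sensors of foreign nucleic acid, 3 of 5 were called lower. Ifih1, which encodes the long double-stranded RNA sensor MDA5, was at 123, 112, 76.9 and 117 CPM in the WT LSK libraries and 46.7, 58.2, 44.1 and 42.6 CPM in the UREΔ LSK libraries (-1.19 ± 0.19, adjusted p = 0.00631). Dhx58, which encodes LGP2 and modulates the other sensors, was at 45.8, 41.5, 36.4 and 44.96 CPM in the WT LSK libraries and 13.1, 11.4, 22.9 and 11.7 CPM in the UREΔ LSK libraries (-1.54 ± 0.26, adjusted p = 0.0075). Zbp1, a sensor of Z-form nucleic acid that can trigger necroptosis, was at 15.7, 21.4, 16.1 and 16.5 CPM in the WT LSK libraries and 4.68, 7.22, 6.85 and 2.63 CPM in the UREΔ LSK libraries (-1.73 ± 0.33, adjusted p = 0.014). Each of these had all UREΔ libraries below all WT libraries. Ddx58, which encodes RIG-I, did not overlap either (87.3 to 122 and 49.4 to 70.99 CPM) but missed the threshold (-0.71 ± 0.19, adjusted p = 0.0629; with the block -0.71 ± 0.12, adjusted p = 0.0101). Eif2ak2, which encodes the kinase PKR, overlapped between the genotypes (-0.25 ± 0.26, adjusted p = 0.818).

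Of the 10 genes that restrict viruses, 4 were called lower. Mx1 was at 6.37, 4.99, 4.37 and 3.86 CPM in the WT LSK libraries and 0.896, 0.728, 0 and 0.292 CPM in the UREΔ LSK libraries (-3.36 ± 0.79, adjusted p = 0.0354), which for the UREΔ libraries is 23, 22, 0 and 7 counts. Mx2 was at 5.57, 4.69, 3.86 and 3.54 CPM in the WT LSK libraries and 0.312, 1.39, 0.883 and 1.55 CPM in the UREΔ LSK libraries (-2.12 ± 0.49, adjusted p = 0.0318). The Mx genes were among the least expressed members, and their UREΔ values rest on few counts. Rsad2, which encodes viperin, an enzyme that makes a chain-terminating nucleotide, was at 27.1, 36.8, 23.01 and 25.2 CPM in the WT LSK libraries and 4.13, 9.57, 5.26 and 5.22 CPM in the UREΔ LSK libraries (-2.24 ± 0.31, adjusted p = 0.0028). Its neighbour Cmpk2 (chr12:26469204-26479837, next to chr12:26442746-26456452) overlapped between the genotypes and was not called (-0.85 ± 0.32, adjusted p = 0.207). Rtp4, a regulator of the interferon response, was at 148, 210.04, 191 and 148 CPM in the WT LSK libraries and 87.5, 124, 63.2 and 62.2 CPM in the UREΔ LSK libraries (-1.08 ± 0.25, adjusted p = 0.0342). Trim30a did not overlap and was not called, but passed with the block (-0.98 ± 0.13, adjusted p = 0.0034). Bst2, which encodes the tetherin that holds virus particles at the membrane, and Ifitm1, Ifitm2 and Ifitm3 were not called, with log2 fold changes of -0.34, -0.08, -0.15 and -0.62.

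In the group of signal and feedback factors, Isg15 was the member called. Isg15 encodes a ubiquitin-like protein that is attached to other proteins, and was at 16.9, 23.5, 15.2 and 13.1 CPM in the WT LSK libraries and 4.87, 6.16, 3.78 and 3.38 CPM in the UREΔ LSK libraries (-1.94 ± 0.29, adjusted p = 0.00424). All UREΔ libraries lay below all WT libraries, by a gap smaller than the range of the WT values. Usp18, the protease that removes ISG15 and dampens receptor signalling, was at 44.9, 67.3, 39.003 and 42.02 CPM in the WT LSK libraries and 21.6, 28.7, 30.9 and 13.9 CPM in the UREΔ LSK libraries, again without overlap, but missed the threshold (-1.05 ± 0.29, adjusted p = 0.0696; with the block -1.09 ± 0.21, adjusted p = 0.015). Stat2 and Trim25, a ligase that activates RIG-I, overlapped between the genotypes (-0.57 ± 0.35, adjusted p = 0.549, and -0.66 ± 0.31, adjusted p = 0.357). The value of Stat2 in UREΔ LSK replicate 2 was 18.1 CPM, far below the other 3 libraries at 45.6 to 48.9 CPM.

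Of 6 GTPases that are induced mainly by interferon gamma, Gbp3 and Iigp1 were called lower. Gbp3 was at 52.3, 86.4, 63.9 and 68.8 CPM in the WT LSK libraries and 17.5, 34.1, 33.7 and 17.8 CPM in the UREΔ LSK libraries (-1.42 ± 0.29, adjusted p = 0.0178). Gbp7 and Gbp2, which flank it on chromosome 3 (chr3:142530342-142550149, chr3:142560026-142573209 and chr3:142620602-142638008), were not called (-0.21 ± 0.20, adjusted p = 0.793, and 0.06 ± 0.20, adjusted p = 0.964). Gbp2 was at 122 to 144 CPM in WT LSKs and 103 to 176 CPM in UREΔ LSKs. Iigp1, which attacks the vacuoles of intracellular pathogens, was at 113, 139, 102 and 90.8 CPM in the WT LSK libraries and 36.7, 49.95, 34.2 and 21.2 CPM in the UREΔ LSK libraries (-1.68 ± 0.27, adjusted p = 0.00562). Igtp and Irgm1 were not called (-0.42 ± 0.28, adjusted p = 0.61, and -0.72 ± 0.27, adjusted p = 0.197), and Irgm1 passed with the block (-0.67 ± 0.16, adjusted p = 0.0384).

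Of the remaining members, Ifi27, which encodes a small mitochondrial and membrane protein, was at 103, 133, 112 and 124 CPM in the WT LSK libraries and 49.9, 80.2, 77.4 and 46.3 CPM in the UREΔ LSK libraries (-0.92 ± 0.22, adjusted p = 0.037). Ifi44 was at 66.2, 103, 49.7 and 77.8 CPM in the WT LSK libraries and 23.2, 45.3, 39.4 and 27.6 CPM in the UREΔ LSK libraries (-1.15 ± 0.28, adjusted p = 0.0416). Both had no overlap between the genotypes. Xaf1, a promoter of apoptosis, also had none but missed the threshold (-1.11 ± 0.29, adjusted p = 0.0609; with the block -1.15 ± 0.15, adjusted p = 0.00322). None of the PARP and DTX3L genes was called, whose products modify antiviral proteins by ADP-ribose and ubiquitin. Their log2 fold changes were -0.49 for Parp9, -0.67 for Parp12, -0.48 for Parp14 and -0.26 for Dtx3l. Parp9 and Dtx3l overlap on opposite strands by 458 exonic bases, and since the libraries were unstranded their reads cannot be told apart there. The immunoproteasome subunits Psmb8 and Psmb9, which cut proteins for presentation on MHC class I, stood at 0.01 and -0.33, and Ifi35 at -0.42.

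**Figure D3:**
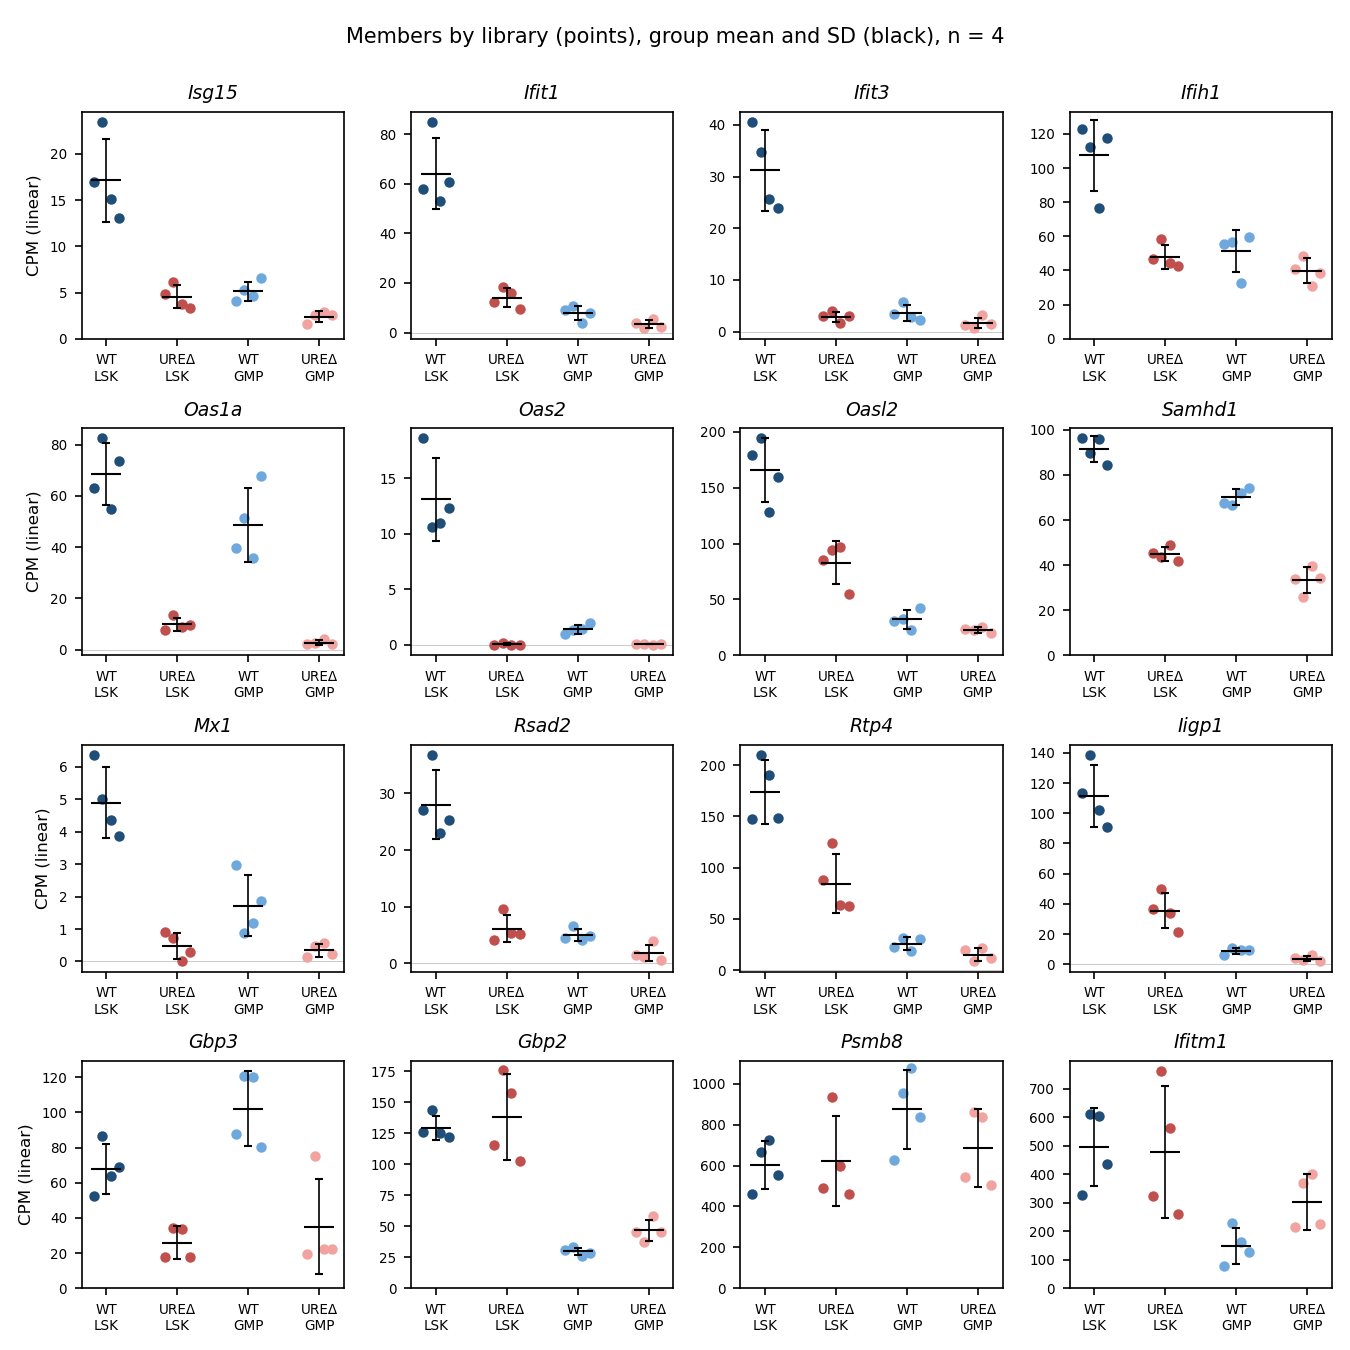
CPM of 16 members, 1 panel each on a linear axis from 0, in the 4 libraries of each group (points, replicates 1 to 4 from left to right) with group mean and SD (black). For Ifit1, Ifit3 and Isg15 the UREΔ LSK points lie below the WT LSK points, while Oas1a and Samhd1 separate by genotype in both cell types and Gbp2, Psmb8 and Ifitm1 show no such fall in LSKs.

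The same comparison in GMPs gave fewer calls. Of the 45 members, 4 were called lower in UREΔ GMPs (Oas1a, Oas2, Samhd1 and Mx1) and none higher, compared with 3.63% lower and 4.67% higher among the 13829 genes tested. At an unadjusted p under 0.05, 20 members passed, and 20.3% of all genes. All 4 called members were also among the 19 called in LSKs, which is 4 of 4 and 4 of 19. For all genes this overlap was not counted. The median log2 fold change of the members was -0.43, compared with 0.01 over all genes, and 35 of the 45 values were negative. In 8 members all UREΔ libraries were below all WT libraries, compared with 6.98% of all genes. With the replicate block 9 members were lower and 2 higher, against a background of 6.82% and 9.52%. Over all genes 1148 were called in either direction in the fit of all 8 libraries. Without UREΔ GMP replicate 3 the member count was 8, with 1176 of all genes called. Within replicates 1 and 4 it was 9 (1236 of all genes), within replicates 2 and 3 it was 1 (108 of all genes), and with a covariate for Y-linked reads it was 3 (620 of all genes). DESeq2 called 8 members lower and 1 higher, and 1997 of all genes.

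The 4 genes called in GMPs were separated from WT in every library. Oas1a was at 39.8, 51.4, 35.6 and 67.9 CPM in the WT GMP libraries and 1.98, 2.61, 3.94 and 2.14 CPM in the UREΔ GMP libraries (-4.18 ± 0.33, adjusted p = 0.000283; with Oas1g added -4.26). Oas2 had 22, 31, 28 and 37 counts in the WT GMP libraries and 1, 1, 0 and 1 in the UREΔ GMP libraries, 36.3 times more in WT (95% exact binomial interval 12.1 to 179, counting error only; adjusted p = 0.00118). For both synthetases the UREΔ libraries were far below the WT libraries. Samhd1 was at 67.7, 66.6, 71.99 and 74.2 CPM in the WT GMP libraries and 33.6, 26.05, 39.8 and 34.4 CPM in the UREΔ GMP libraries (-1.07 ± 0.18, adjusted p = 0.00712), a log2 fold change near its value in LSKs of -1.06. Mx1 was at 2.99, 0.872, 1.17 and 1.87 CPM in the WT GMP libraries and 0.145, 0.470, 0.563 and 0.225 CPM in the UREΔ GMP libraries (-2.29 ± 0.56, adjusted p = 0.0372). Oas2 and Mx1 did not pass a filter of at least 1 CPM in at least 4 of the libraries, and the count was then 2. Mx1 also lost its call in 5 of the 8 fits that left out a library.

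Each of the other 15 members that were called in LSKs had a negative log2 fold change in GMPs, without passing the threshold. How many of all genes called lower in LSKs were negative in GMPs was not counted. Isg15 was at 4.07, 5.31, 4.64 and 6.53 CPM in the WT GMP libraries and 1.59, 2.61, 2.92 and 2.53 CPM in the UREΔ GMP libraries (-1.09 ± 0.30, adjusted p = 0.0538; with the block -1.11 ± 0.27, adjusted p = 0.0267). Rsad2 (-1.49 ± 0.54, adjusted p = 0.145), Iigp1 (-1.28 ± 0.39, adjusted p = 0.08) and Gbp3 (-1.58 ± 0.43, adjusted p = 0.0568) also had all UREΔ libraries below all WT libraries and passed with the block. For Gbp3, replicate 2 of the UREΔ GMPs was at 75.4 CPM and the other 3 libraries were at 19.6 to 22.3 CPM. Oas3 was the remaining member that passed as lower with the block (-1.09 ± 0.32, adjusted p = 0.0487).

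The members with positive values in GMPs included Ifitm1 and Gbp2. Ifitm1 was at 77.7, 229.6, 162 and 129 CPM in the WT GMP libraries and 215, 371, 402 and 224 CPM in the UREΔ GMP libraries (1.01 ± 0.34, adjusted p = 0.117) and passed as higher with the block (1.06 ± 0.16, adjusted p = 0.00378), where UREΔ was above WT in each of the 4 replicate pairs. Gbp2 was at 31.03, 33.05, 25.98 and 28.9 CPM in the WT GMP libraries and 45.7, 37.5, 58.4 and 45.02 CPM in the UREΔ GMP libraries, with all UREΔ libraries above all WT libraries (0.65 ± 0.19, adjusted p = 0.0781; with the block 0.63 ± 0.18, adjusted p = 0.0488). Ddx58 and Ifit2 had small positive values that were not called (0.19 and 0.29).

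**Figure D4:**
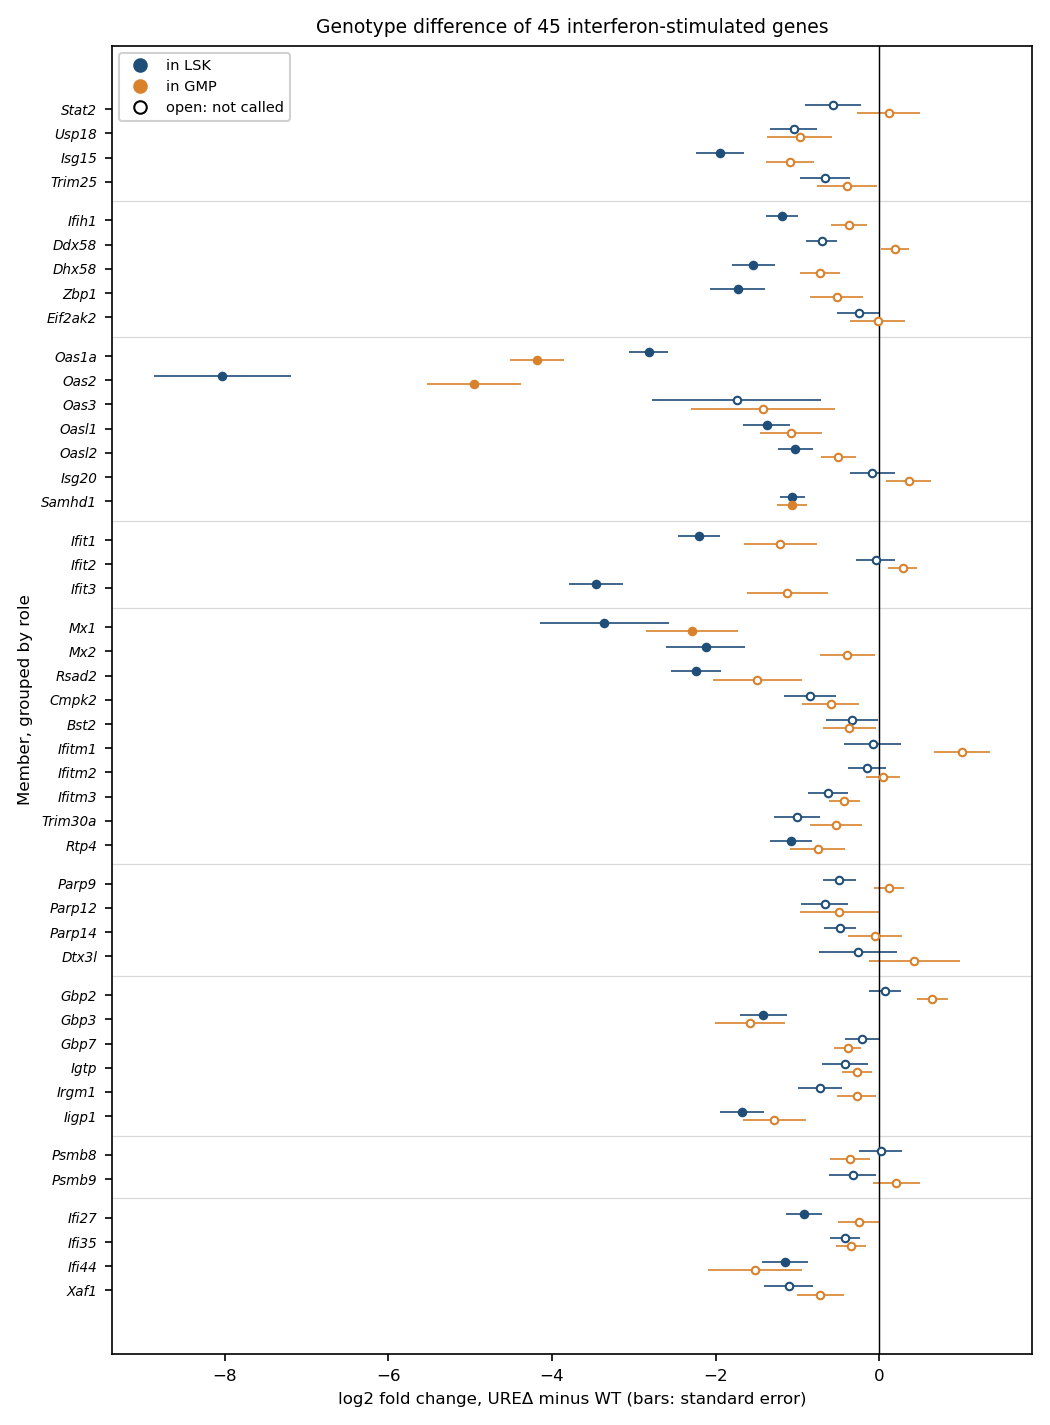
Log2 fold change of UREΔ over WT for each of the 45 members, grouped by role, in LSKs (blue) and GMPs (orange), with the SE as horizontal bars. Filled points passed both limits, which were 19 members in LSKs and 4 in GMPs, all to the left of 0.

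Whether the effect of the genotype differed between the cell types was tested with the interaction term over all 16 libraries. Among 15935 genes tested, 0.351% were called with a negative and 0.866% with a positive difference (UREΔ minus WT in GMPs less that in LSKs). None of the 45 members was called by edgeR, and 10 had an unadjusted p under 0.05, as had 11.6% of all genes. None was called within replicates 1 and 4, within replicates 2 and 3 or with a covariate for Y-linked reads, where 174, 2 and 154 of all genes were called. DESeq2 called Ifit3 and Ddx58 with a positive and Oas1a with a negative difference, among 674 of all genes. With the replicate block 6 members were called, 1 with a negative and 5 with a positive difference, against a background of 2.60% and 3.97%. Ifit3 (2.37 ± 0.57, adjusted p = 0.0249), Ifih1 (0.79 ± 0.19, adjusted p = 0.0243), Ddx58 (0.86 ± 0.17, adjusted p = 0.00901), Ifi27 (0.71 ± 0.19, adjusted p = 0.0397) and Ifitm1 (1.19 ± 0.23, adjusted p = 0.00887) had positive differences. For the first 4 of these the log2 fold change was more negative in LSKs. Oas1a had a negative one (-1.35 ± 0.32, adjusted p = 0.0238), with the more negative value in GMPs. For the other 39 members a difference between the cell types was not shown.

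Maturation from LSK to GMP was accompanied by lower levels of most members in WT mice. Of the 45 members, 30 were called lower in WT GMPs than in WT LSKs and none higher, and over the 14767 genes tested 15.8% were lower and 11.5% higher. The median log2 fold change was -1.41 for the members and -0.09 over all genes. Within replicates 1 and 4, within replicates 2 and 3 and with a covariate for Y-linked reads, 28, 27 and 29 members were lower, and 3033, 2507 and 3908 of all genes were called in either direction, compared with 4037 in the fit of all 8 libraries. The replicate block gave 35 lower and none higher, with Stat2, Oas3, Trim30a, Dtx3l and Cmpk2 added, against a background of 25.1% and 15.8%. The largest falls were those of Iigp1 (-3.66 ± 0.23, adjusted p = 2.37e-05), Ifi44 (-3.39 ± 0.32, adjusted p = 0.000147), Oas2 (-3.26 ± 0.32, adjusted p = 0.00018), Ifit3 (-3.13 ± 0.34, adjusted p = 0.000293) and Ifit1 (-3.04 ± 0.33, adjusted p = 0.000272). Iigp1 went from 113, 139, 102 and 90.8 CPM to 6.36, 10.7, 9.18 and 9.13 CPM. Ifi44 went from 66.2, 103, 49.7 and 77.8 CPM to 5.80, 9.34, 4.54 and 8.71 CPM.

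Members that did not pass in either comparison of the genotypes were among those that fell with maturation. The RNA sensor gene Ddx58 was at 89.2, 122, 111 and 87.3 CPM in the WT LSK libraries and 18.4, 21.96, 18.1 and 19.6 CPM in the WT GMP libraries (-2.40 ± 0.18, adjusted p = 4.37e-05). Gbp2 was at 126, 144, 125 and 122 CPM in the WT LSK libraries and 31.03, 33.05, 25.98 and 28.9 CPM in the WT GMP libraries (-2.13 ± 0.15, adjusted p = 3.82e-05). The membrane gene Ifitm1 was at 328, 610.1, 605 and 437 CPM in the WT LSK libraries and 77.7, 229.6, 162 and 129 CPM in the WT GMP libraries (-1.74 ± 0.34, adjusted p = 0.00479). Likewise Ifitm3 was at 309, 417, 328 and 369 CPM in the WT LSK libraries and 125, 189, 171 and 152 CPM in the WT GMP libraries (-1.17 ± 0.17, adjusted p = 0.00128), whereas Ifitm2 was not called (0.25 ± 0.22, adjusted p = 0.44; 55.5% of its 31-base words are shared with other genes). Isg20 was at 19.6, 28.3, 35.7 and 18.8 CPM in the WT LSK libraries and 7.92, 13.9, 9.87 and 12.9 CPM in the WT GMP libraries (-1.21 ± 0.28, adjusted p = 0.0118). Among the ADP-ribosylating enzymes, Parp9 was at 100.4, 95.5, 57.6 and 93.8 CPM in the WT LSK libraries and 38.6, 33.8, 25.5 and 33.6 CPM in the WT GMP libraries (-1.41 ± 0.22, adjusted p = 0.00169). Parp14 was at 53.2, 59.7, 51.95 and 48.8 CPM in the WT LSK libraries and 27.9, 14.99, 8.89 and 19.9 CPM in the WT GMP libraries (-1.59 ± 0.32, adjusted p = 0.00555). Parp12 was at 6.15, 7.17, 9.59 and 7.89 CPM in the WT LSK libraries and 0.952, 2.45, 2.54 and 2.80 CPM in the WT GMP libraries (-1.83 ± 0.36, adjusted p = 0.00507). All 3 PARP genes thus had their GMP libraries below their LSK libraries.

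The GTPases of the interferon gamma group fell as well, apart from Gbp3. Gbp7 was at 241, 341, 241 and 257 CPM in the WT LSK libraries and 142, 167, 126 and 172 CPM in the WT GMP libraries (-0.84 ± 0.17, adjusted p = 0.00622). Igtp was at 153, 180.3, 148 and 130.1 CPM in the WT LSK libraries and 57.5, 67.7, 54.3 and 81.9 CPM in the WT GMP libraries (-1.24 ± 0.18, adjusted p = 0.00127). Irgm1, which controls autophagy of pathogens, was at 98.9, 196, 87.9 and 101 CPM in the WT LSK libraries and 44.02, 87.5, 45.9 and 53.8 CPM in the WT GMP libraries (-1.08 ± 0.32, adjusted p = 0.0321), and it lost its call in 5 of the 8 fits that left out a library. Gbp3 had a positive value that was not called (0.58 ± 0.21, adjusted p = 0.0705). The feedback protease gene Usp18 was at 44.9, 67.3, 39.003 and 42.02 CPM in the WT LSK libraries and 11.2, 19.6, 10.6 and 12.1 CPM in the WT GMP libraries (-1.86 ± 0.27, adjusted p = 0.00128). The apoptosis gene Xaf1 was at 37.8, 57.3, 47.5 and 34.1 CPM in the WT LSK libraries and 9.87, 19.3, 17.6 and 12.6 CPM in the WT GMP libraries (-1.59 ± 0.27, adjusted p = 0.00269). Ifit2 was at 77.97, 64.4, 39.98 and 80.7 CPM in the WT LSK libraries and 45.4, 38.2, 33.1 and 40.7 CPM in the WT GMP libraries (-0.75 ± 0.24, adjusted p = 0.0401), with overlapping groups, and it lost its call in 7 of the 8 fits that left out a library (log2 fold change -0.92 to -0.64 over the 8). Oas1a and Samhd1, which were called lower in UREΔ than in WT in both cell types, were not called here (-0.51 ± 0.24, adjusted p = 0.142, and -0.40 ± 0.13, adjusted p = 0.052).

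In UREΔ mice fewer members were called between LSKs and GMPs. Oas2 and Mx1 were too low to be tested, and of the other 43 members 18 were called lower and none higher, against 12.6% lower and 9.20% higher of 14395 genes. The median log2 fold change was -0.85 for the members and -0.09 over all genes. Iigp1 was at 36.7, 49.95, 34.2 and 21.2 CPM in UREΔ LSKs and 4.24, 2.56, 5.84 and 1.86 CPM in UREΔ GMPs (-3.32 ± 0.42, adjusted p = 0.000788). Ifi44 was at 23.2, 45.3, 39.4 and 27.6 CPM and 2.12, 0.574, 5.12 and 1.91 CPM (-3.82 ± 0.59, adjusted p = 0.00197). Rtp4 was at 87.5, 124, 63.2 and 62.2 CPM and 19.6, 8.35, 21.3 and 11.4 CPM (-2.50 ± 0.36, adjusted p = 0.0015). These 3 genes fell with maturation in both genotypes. Of the 30 members called in WT, 13 were not called in UREΔ, but 2 of these, Oas2 and Mx1, were not tested there. The matching share over all genes was not counted. Among the tested ones were Ifit3 (-0.85 ± 0.50, adjusted p = 0.265), Isg15 (-0.95 ± 0.34, adjusted p = 0.0741) and Ifih1 (-0.31 ± 0.19, adjusted p = 0.272). In the blocked fit 23 members were lower in UREΔ GMPs and none higher, against a background of 18.6% and 13.3%. Of the 13 members, 4 then passed in UREΔ, which were Isg20 (-0.86 ± 0.18, adjusted p = 0.00653), Dhx58 (-0.72 ± 0.25, adjusted p = 0.0489), Rsad2 (-2.04 ± 0.53, adjusted p = 0.0176) and Ifitm1 (-0.63 ± 0.15, adjusted p = 0.0127). Oas3 was the remaining member added. Oas1a was called in UREΔ without the block (-1.92 ± 0.34, adjusted p = 0.00366) and not in WT. The comparison of WT GMPs with WT LSKs and that of UREΔ with WT LSKs use the same WT LSK libraries, so that a common list of members between them is no separate result. The count for UREΔ mice was 18 with a covariate for Y-linked reads (3094 of all genes) and 18 within replicates 1 and 4 (4222 of all genes), where Xaf1, Igtp and Irgm1 were lost and Isg20, Oas3 and Rsad2 were gained. Within replicates 2 and 3 it was 7, where 810 of all genes were called, compared with 3133 in the fit of all 8 libraries.

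**Figure D5:**
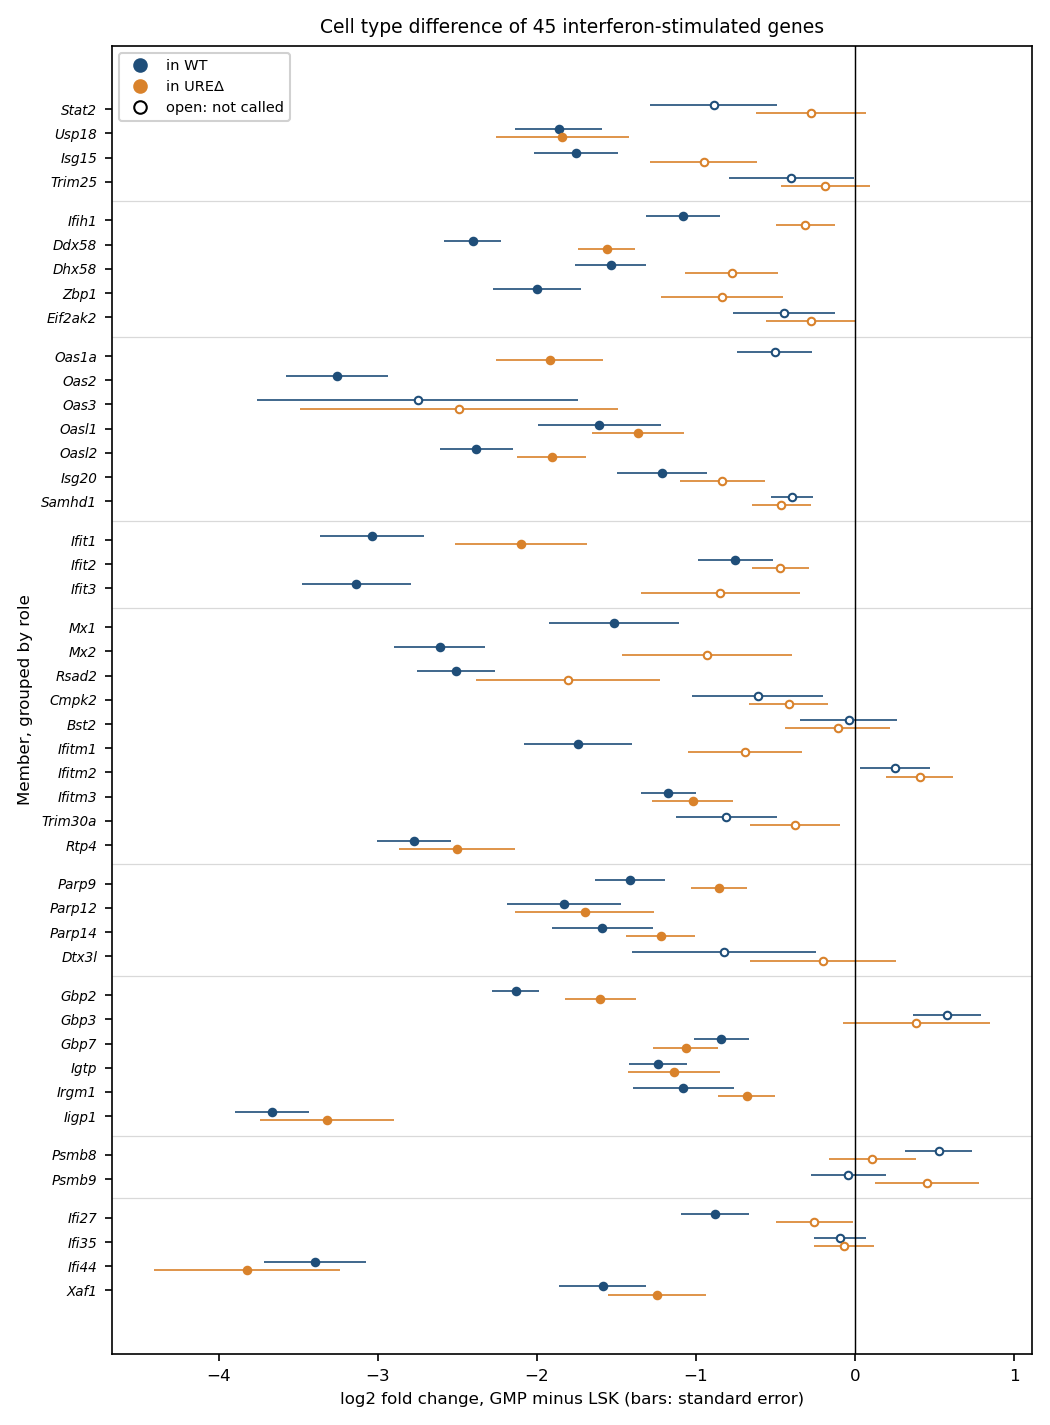
Log2 fold change of GMP over LSK for each of the 45 members, grouped by role, in WT mice (blue) and UREΔ mice (orange), with the SE as horizontal bars. Filled points passed both limits (30 members in WT and 18 of the 43 tested in UREΔ), and all filled points lie below 0.

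The level of the members in UREΔ LSKs was compared with that in WT GMPs as a description. For 28 of the 45 members the mean in UREΔ LSKs was above that in WT GMPs, and for 10 of the 19 that were called lower in UREΔ LSKs. Isg15 had 4.55 ± 1.24 CPM (SD, n = 4) in UREΔ LSKs and 5.14 ± 1.06 CPM in WT GMPs. Rtp4, by contrast, had 84.2 ± 28.9 CPM and 25.7 ± 6.32 CPM. Oas1a went the other way, with 9.87 ± 2.61 CPM in UREΔ LSKs and 48.7 ± 14.4 CPM in WT GMPs. The members thus did not share 1 order of these groups.

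The genes that carry the interferon signal were counted beside the members. Among 8 STAT and IRF factors, 6 were lower in UREΔ LSKs and 3 in UREΔ GMPs, and none was higher. Irf9, the DNA-binding partner of STAT2, was at 159.7, 235, 173 and 153 CPM in the WT LSK libraries and 91.1, 125, 82.2 and 70.9 CPM in the UREΔ LSK libraries (-0.99 ± 0.22, adjusted p = 0.0267), and it was lower in GMPs too (-0.94 ± 0.20, adjusted p = 0.0173). Irf7, which amplifies the type I response, was at 116, 80.8, 39.1 and 90.0 CPM in the WT LSK libraries and 25.4, 16.3, 13.96 and 24.5 CPM in the UREΔ LSK libraries (-2.05 ± 0.34, adjusted p = 0.00677). Irf8, a myeloid factor that can bind DNA with PU.1, was at 60.7, 53.9, 29.5 and 48.2 CPM in the WT LSK libraries and 4.36, 9.04, 3.66 and 4.39 CPM in the UREΔ LSK libraries (-3.19 ± 0.36, adjusted p = 0.000947), and was lower in GMPs (-2.51 ± 0.64, adjusted p = 0.0428). Irf5 (-3.45 ± 0.36, adjusted p = 0.000639) and Irf2 (-0.68 ± 0.16, adjusted p = 0.0389) were lower in LSKs, and Irf5 also in GMPs (-2.62 ± 0.42, adjusted p = 0.00537). Irf1 and Irf3 were not called in either.

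Of 9 receptor genes and receptor kinases, 8 were tested, and 2 were lower in UREΔ LSKs. Ifnar2, a chain of the type I receptor, was at 115, 102, 85.4 and 107 CPM in the WT LSK libraries and 55.9, 58.9, 57.9 and 56.02 CPM in the UREΔ LSK libraries (-0.87 ± 0.15, adjusted p = 0.00783), and was lower in GMPs as well (-0.95 ± 0.17, adjusted p = 0.00981). Ifngr2, a chain of the interferon gamma receptor, was at 30.3, 36.4, 57.6 and 46.8 CPM in the WT LSK libraries and 17.2, 21.8, 15.2 and 6.39 CPM in the UREΔ LSK libraries (-1.53 ± 0.37, adjusted p = 0.0406; in GMPs -1.96 ± 0.43, adjusted p = 0.0212). The other gamma chain, Ifngr1, was higher in UREΔ GMPs, with 641, 629, 518 and 666 CPM in the WT GMP libraries and 1531, 1650.2, 1108 and 1595 CPM in the UREΔ GMP libraries (1.25 ± 0.16, adjusted p = 0.00206). Il10rb, shared by the lambda interferon and interleukin-10 receptors, was lower in GMPs (-1.15 ± 0.16, adjusted p = 0.00314). Of 5 negative regulators, Ptpn6, the phosphatase SHP-1, was lower in both cell types (-1.27 ± 0.16, adjusted p = 0.00145, and -0.66 ± 0.17, adjusted p = 0.0432). Socs3, an inhibitor of cytokine signalling, was not called in LSKs (1.21 ± 0.82, adjusted p = 0.618) or GMPs (2.62 ± 0.80, adjusted p = 0.0822), but was higher in both with the replicate block (1.30 ± 0.19, adjusted p = 0.00494, and 2.65 ± 0.27, adjusted p = 0.000682). Of 10 sensors and adaptors upstream of interferon none was called in LSKs, and Tlr3 was lower in GMPs (-3.83 ± 0.91, adjusted p = 0.031). With the replicate block, Cgas was also lower in GMPs (-1.25 ± 0.21, adjusted p = 0.0053), and Ikbke (1.33 ± 0.21, adjusted p = 0.00403) and Ticam1 (1.04 ± 0.28, adjusted p = 0.0393) were higher.

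Transcripts of the listed interferon genes themselves were hardly found. Of 10 interferon genes, 8 had no count in any of the 16 libraries. Of the Ifna genes, only Ifna1, Ifna2, Ifna4 and Ifna5 were on this list. Ifnb1 had 6 counts in all and Ifnk 18, with at most 5 in a library, and none of the 10 could be tested. A source of interferon outside the sorted cells was not measured.

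Markers of other cell types moved with the genotype beside the members, and their part in these results was not tested. Of 6 monocyte markers, 4 were lower in UREΔ LSKs and 4 in UREΔ GMPs (with the replicate block 4 and 5), and their summed level ranged from 72.6 to 93.9 CPM in WT LSKs, 6.68 to 15.1 CPM in UREΔ LSKs, 542 to 747 CPM in WT GMPs and 36.0 to 135 CPM in UREΔ GMPs. Of 7 dendritic cell markers, 4 were tested in LSKs and 3 in GMPs, of which 2 were lower in UREΔ LSKs and 3 in UREΔ GMPs (with the replicate block 3 and 3), with sums of 757 to 1492 CPM in WT LSKs, 295 to 474 CPM in UREΔ LSKs, 223 to 368 CPM in WT GMPs and 16.3 to 39.8 CPM in UREΔ GMPs. These sums include Flt3, a receptor that early progenitors also express, which alone was at 359 to 1207 CPM in WT LSKs and 157 to 355 CPM in UREΔ LSKs. The 2 markers called in LSKs were Flt3 and Cd74, and H2-Aa passed with the block (-1.54 ± 0.21, adjusted p = 0.00376). Siglech, which marks plasmacytoid dendritic cells, was at 0.0403 to 1.27 CPM in WT LSKs and at 0 in every UREΔ LSK library, and Cd209d was at 0 in both. Ccr9, also a plasmacytoid marker, had the opposite sign, with 5.41, 15.3, 7.72 and 0.926 CPM in the WT LSK libraries and 61.7, 13.6, 38.1 and 11.2 CPM in the UREΔ LSK libraries, and was not called (2.05 ± 0.78, adjusted p = 0.218). Of 6 late neutrophil markers, 1 was higher in UREΔ LSKs and 2 in UREΔ GMPs (with the replicate block 4 and 5), with sums of 35.6 to 179 CPM and 178 to 357 CPM in WT and UREΔ LSKs. Of 3 basophil and mast cell markers, 2 were higher in UREΔ LSKs, with sums of 21.7 to 42.05 CPM in WT and 84.7 to 155 CPM in UREΔ LSKs, and in GMPs 1 was lower and 1 higher. Of 5 granulocyte-monocyte progenitor markers, Elane was higher (1.15 ± 0.28, adjusted p = 0.0416) and Prtn3 lower (-2.48 ± 0.34, adjusted p = 0.00252) in UREΔ LSKs, and Ctsg passed as higher with the block (1.37 ± 0.30, adjusted p = 0.027). Of 3 megakaryocyte markers, Itga2b was higher in UREΔ LSKs (1.88 ± 0.41, adjusted p = 0.026), with sums of 40.5 to 61.2 CPM in WT and 52.3 to 309 CPM in UREΔ LSKs. Of 6 erythroid markers, Hbb-bt was lower in UREΔ LSKs (-4.54 ± 0.74, adjusted p = 0.00638), and Car1 passed as lower with the block (-1.25 ± 0.32, adjusted p = 0.0476). None of these 3 lists had a call in GMPs, where 3 granulocyte-monocyte progenitor markers were higher with the replicate block. None of the 5 stem and early progenitor markers was called in either cell type, and with the replicate block 2 were lower in UREΔ GMPs. T and NK cell markers summed to at most 3.995 CPM in any library. Ly6a, which is itself induced by interferon and encodes the Sca-1 used to sort the LSKs, was not called between the genotypes (-0.61 ± 0.34, adjusted p = 0.5). The lists also moved between the cell types in WT mice, and their part was not tested. In WT GMPs all 5 stem and early progenitor markers were lower and all 5 granulocyte-monocyte progenitor markers higher. Of 6 dendritic cell markers tested, 4 were lower and 0 higher, and of 6 monocyte markers 5 were higher and 0 lower. All 3 basophil and mast cell markers were higher, and 3 of 6 erythroid markers were higher and 1 lower. Of 8 STAT and IRF factors, 5 were lower and 1 higher.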

How the data were processed

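RNA-seq was analysed in 16 libraries, 4 per genotype and cell type, made from up to 10 ng of RNA as unstranded low-input libraries without molecular identifiers. The authors quantified the reads with Salmon (version and annotation release not given in the sources used here; GRCm38) and summed them with tximport, and deposited estimated counts per gene, which had been rounded to whole numbers. All columns of the table belonged to the samples of the series.

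Genes that passed filterByExpr were tested with edgeR 4.0.16 (TMM, quasi-likelihood, R 4.3.3), with each comparison fitted on its own 8 libraries and the interaction on all 16. Genes with an adjusted p below 0.05 and a change of more than 1.5-fold were called, and for the interaction the adjusted p alone was used. The study's methods used DESeq2, which was run as an alternative (1.42.0). Log2 CPM used a prior count of 2. CPM levels per kilobase used exonic lengths. The test was also run on simulated counts with a fixed spread and without the replicate sets or sexes seen here. That run therefore does not cover the effect of these on the calls. Members called in any comparison were described with their value in every library for at least 1 comparison, and the others by fold change, range or count. The members and all gene lists were chosen with earlier results of these data known.

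Same-numbered samples deviated together from their group means in every pair, with r from 0.30 to 0.61 over genes between the genotypes in LSKs, 0.28 to 0.62 in GMPs, and 0.47 to 0.77 and 0.44 to 0.58 between the cell types in WT and UREΔ mice. Differently numbered samples of the same replicate set (1 and 4, or 2 and 3) had a mean r of 0.29, 0.32, 0.25 and 0.27 in these comparisons, and samples of different sets a mean r of -0.44 to -0.36. The numbers come from the sample labels and were therefore used as a block in the alternative fit. Whether LSK and GMP libraries of the same genotype and number came from the same mouse is not given in the labels. The main fits did not use such a pairing, and the results in LSKs and GMPs may not be independent. Other alternatives were the size factors, the filters, a joint fit, the replicates within each set, a covariate for Y-linked reads, each library left out, and, chosen after seeing the data, the counts of near-identical genes added to Oas1a and Ifit3. Replicates of a group differed by more than sampling noise.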

Additional observations from a re-analysis of the deposited data

Results flagged for a closer look

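In 13 of 174 member and group pairs with a mean of at least 1 CPM (7.47%), 1 of the 4 libraries lay apart from the other 3 by Dixon's criterion, which chance meets in about 1 of 20. In WT LSKs these were replicate 2 for Zbp1 (21.4 CPM), Gbp7 (341 CPM) and Irgm1 (196 CPM), and replicate 3 for Parp9 (57.6 CPM). In UREΔ LSKs they were replicate 2 for Stat2 (18.1 CPM) and Ifi35 (75.4 CPM), replicate 3 for Dhx58 (22.9 CPM) and replicate 4 for Oasl1 (8.56 CPM). In WT GMPs they were replicate 2 for Usp18 (19.6 CPM) and replicate 3 for Ifih1 (33.0 CPM). In UREΔ GMPs they were replicate 2 for Gbp3 (75.4 CPM) and replicate 3 for Isg20 (20.6 CPM) and Zbp1 (4.15 CPM).

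With the replicate block, the effect of the genotype differed between GMPs and LSKs for 6 members by the interaction term of edgeR. The difference was 2.37 log2 units for Ifit3 (adjusted p = 0.0249), 0.71 for Ifi27 (adjusted p = 0.0397), 0.79 for Ifih1 (adjusted p = 0.0243), 0.86 for Ddx58 (adjusted p = 0.00901), 1.19 for Ifitm1 (adjusted p = 0.00887) and -1.35 for Oas1a (adjusted p = 0.0238). Without the block none of these passed, with adjusted p of 0.0663, 0.487, 0.267, 0.0767, 0.455 and 0.0912 in the same order.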

How the results depend on the processing

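Each called member kept its direction in every alternative that gave it a value, and the counts of calls moved as follows, where the cause was not tested unless stated. In LSKs, where 19 members were lower, 6 were lower within replicates 2 and 3 (a fit on fewer libraries), 10 with the covariate for Y-linked reads, and 10 to 17 when a library was left out. In GMPs, where 4 were lower and 0 higher and 1148 of all genes were called, DESeq2 gave 8 lower and 1 higher (1997 of all genes). The joint fit gave 9 lower and 1 higher (1553 of all genes). The stricter filter left 2 lower because Oas2 and Mx1 were not tested, and 9 were lower within replicates 1 and 4, 1 within replicates 2 and 3, and 3 to 8 when a library was left out. Between the cell types in WT mice, DESeq2 gave 1 member higher and the fits without a library 0 to 2. In UREΔ mice 7 were lower within replicates 2 and 3, and 0 to 1 were higher without a library. For the interaction, DESeq2 gave 1 negative and 2 positive calls, and 0 to 1 of either sign were called without a library. With the replicate block, the GMP comparison gave 9 lower and 2 higher, the interaction 1 negative and 5 positive, and the LSK comparison 26 lower. Over members of at least 3 log2 CPM alone, the difference in mean level was -0.75 in place of -1.16 between the genotypes in LSKs and -1.19 in place of -1.43 between the cell types in WT mice. Low counts limit Oas2 and Mx1, whose fitted fold changes depend on the prior count.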
